A study of Mus musculus with 5 samples.

Results

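Red-cell gene expression was examined in whole mouse lung through 5 genes, Alas2, Hbb-b2, Slc4a1, Ahsp and Epb42. The members were all probe sets, the groups of short oligonucleotides that report on 1 transcript, whose only gene symbol in the platform annotation was one of these 5. This gave 8 of the 34958 probe sets with a single symbol, namely 1 for Alas2, 2 for Hbb-b2, 3 for Slc4a1 and 2 for Epb42, or 4 of 18194 genes. Ahsp had 0 such probe sets and was not analysed here. Arrays were available for 5 strains of naive female mice, with 1 array each. One strain was C57BL/6J, labelled C57. The others were a PDE4B knockout line, labelled 4B(-/-), with its wild type 4B(+/+), and a PDE4D knockout line, labelled 4D(-/-), with its wild type 4D(+/+). Both enzymes degrade the second messenger cyclic AMP. All 4 lines came from a C57BL/6 × 129/Ola background and were backcrossed to C57BL/6J for 11 or more generations. Lungs of 5 mice per strain were frozen and the RNA of 3 of them was mixed, so that an array stands for a pool and the spread between animals cannot be given. The sources used here do not give the ages of the mice, or say whether blood was flushed from the lungs.

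Mature red cells have no nucleus, and red-cell messenger RNA in blood is carried mainly by reticulocytes, the youngest circulating red cells. Erythroid precursors make haemoglobin by joining alpha and beta globin chains with haem. Haem synthesis in these cells starts with Alas2, and the anion exchanger Slc4a1 (band 3) and protein 4.2 (Epb42) tie the membrane to the skeleton beneath it. In bulk lung RNA, fewer red cells and less RNA per red cell cannot be told apart.

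Intensities are on the linear scale deposited after RMA, and a gene or probe set was counted as expressed when its highest array reached a floor of 64. Of the 8 member probe sets 3 reached the floor, those of Alas2 and Hbb-b2, and the 5 of Slc4a1 and Epb42 lay under it in all arrays. With 1 array a strain there is no replicate check and no test, so differences are read as higher or lower only from 1.5-fold and are set against the share of all features that far apart. The median intensity lay between 45.4 and 46.6 in the 5 arrays. Lung markers such as Sftpc, Ager, Scgb1a1 and Cdh5 were all over the floor, and the 10 lung markers together summed to between 105583 and 111552. Of the targeted genes, Pde4b on its brightest probe set had an intensity of 457 in 4B(-/-), against 438 in C57 and 558 in 4B(+/+). Its other probe sets over the floor were lowest in 4B(-/-), at 397 and 164, against 464 and 199 in C57 and 490 and 219 in 4B(+/+). Pde4d had 386 in 4D(-/-) on its probe set over the floor, against 456 in C57 and 523 in 4D(+/+). Where these probe sets lie relative to the deletions is unknown here, so they do not check the labels.

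The start regions of 2 members, Alas2 and Epb42, were in the RefSeq promoter table of assembly GRCm38.p6. They are shown with those of Hbb-bs and Hbb-bt, the adult beta-globin genes of that assembly, because a probe set shared by the adult beta globins is described beside the members. Each is the 250 bases before the annotated start, 5′ to 3′ on the gene's strand. Capitals mark words known to be bound by GATA factors (the words AGATAA and AGATAG, with TGATAA and TGATAG) and by Krüppel-like factors of the Klf1 kind (CCNCNCCC), on either strand. Matches of 1 motif may overlap, and such matches are a description of the letters only.
Alas2, chrX:150547167-150547416, plus strand: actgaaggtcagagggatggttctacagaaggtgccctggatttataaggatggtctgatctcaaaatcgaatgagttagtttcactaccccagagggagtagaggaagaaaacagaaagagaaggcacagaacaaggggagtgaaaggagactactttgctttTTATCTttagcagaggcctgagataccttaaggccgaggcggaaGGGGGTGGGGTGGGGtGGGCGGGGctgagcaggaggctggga
Epb42, chr2:121036878-121037127, minus strand: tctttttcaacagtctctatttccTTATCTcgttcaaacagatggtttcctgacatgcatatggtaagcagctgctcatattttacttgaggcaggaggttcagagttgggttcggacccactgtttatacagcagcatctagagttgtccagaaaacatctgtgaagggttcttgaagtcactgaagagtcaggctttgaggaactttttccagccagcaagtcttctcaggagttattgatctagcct
Hbb-bs, chr7:103827929-103828178, minus strand: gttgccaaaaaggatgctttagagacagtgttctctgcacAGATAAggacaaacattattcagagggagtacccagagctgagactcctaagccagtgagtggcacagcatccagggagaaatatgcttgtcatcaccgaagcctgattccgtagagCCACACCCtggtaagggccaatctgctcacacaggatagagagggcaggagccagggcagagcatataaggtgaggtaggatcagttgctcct
Hbb-bt, chr7:103813924-103814173, minus strand: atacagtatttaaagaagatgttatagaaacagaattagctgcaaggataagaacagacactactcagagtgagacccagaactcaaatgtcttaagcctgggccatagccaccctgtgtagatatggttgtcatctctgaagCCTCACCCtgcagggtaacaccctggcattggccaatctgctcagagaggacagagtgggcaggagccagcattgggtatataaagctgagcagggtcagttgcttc
The Alas2 window held 1 GATA word, TTATCT read on the gene's strand at 86 to 81 bases before the start. It also held 4 Krüppel-like words between 42 and 19 bases before the start, of which the first 3 overlap in turn. Epb42 held 1 GATA word and 0 Krüppel-like words. Hbb-bs held 1 of each, the latter being CCACACCC at 93 to 86 bases before the start, and Hbb-bt held 0 and 1. Among 32851 windows of the same length in the table, 26.5% held a GATA word and 45.9% a Krüppel-like word, so neither is rare.

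The main difference among the members was between the 2 PDE4D lines. In 4D(-/-) against 4D(+/+), 4 of 8 member probe sets were at least 2-fold higher and 0 lower, where 0.0973% of all single-symbol probe sets were at least 2-fold higher and 0.795% at least 2-fold lower. The 4 belong to Alas2 (1), Hbb-b2 (1) and Slc4a1 (2), and the same 4 make up the count at 1.5-fold, which 0.858% of all probe sets reached upward and 2.71% downward. In 4B(-/-) against 4B(+/+), 0 of 8 passed 1.5-fold in either direction, where 0.358% of all probe sets did so upward and 0.732% downward. The members were chosen with earlier results of these data known. Their counts here and below are therefore no independent support for a difference. The plot of member intensities shows each value.

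**Figure D1:**
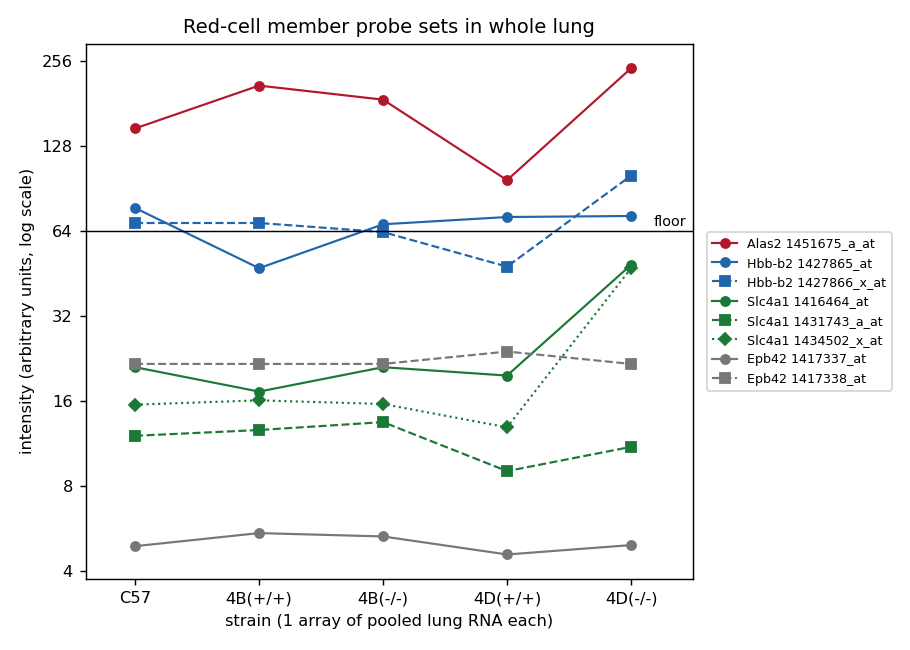
Intensity (arbitrary units, log scale) of the 8 member probe sets in the 5 strains, with 1 array a strain and the floor of 64 drawn as a line. Lines join the values of a probe set and carry no order of strains. Alas2, one Hbb-b2 probe set and 2 Slc4a1 probe sets are highest in 4D(-/-), and both Epb42 probe sets are nearly flat.

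Alas2, the erythroid form of the first enzyme of haem synthesis, was the only member over the floor in all 5 arrays. Its single probe set read 147 in C57, 209 in 4B(+/+), 186 in 4B(-/-), 96.6 in 4D(+/+) and 240 in 4D(-/-). The 2 PDE4D lines thus held the lowest and the highest value, and the other 3 arrays lay between them. The highest was 2.49-fold above the lowest, but 4D(-/-) was only 1.15-fold above 4B(+/+), the next array. Against C57, 4D(-/-) was 1.63-fold higher and 4D(+/+) 1.52-fold lower. Among genes over the floor, 1.37% were at least 1.5-fold higher in 4D(-/-) than in C57 and 1.24% at least 1.5-fold lower in 4D(+/+). Against the mean log2 of C57 and 4B(+/+), which leaves the 4D(+/+) array out, Alas2 in 4D(-/-) was 1.37-fold higher and no longer past 1.5-fold. Between the PDE4B lines Alas2 differed by 1.12-fold, with 4B(-/-) the lower.

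Hbb-b2 encodes an adult beta-globin chain. It belongs to a haplotype of the beta-globin cluster carried by strains such as BALB/c, and the C57BL/6J assembly carries Hbb-bs and Hbb-bt in its place, so signal on its probe sets cannot be given to 1 beta-globin gene. The 2 Hbb-b2 probe sets did not move together. The one ending in x_at, a suffix the manufacturer uses for probes that can also match other transcripts, read 68.2 in C57, 68.2 in 4B(+/+), 63.3 in 4B(-/-), 47.8 in 4D(+/+) and 100 in 4D(-/-). It was therefore 2.10-fold higher in 4D(-/-) than in 4D(+/+), and 1.47-fold above the next highest arrays. The other read 77.1 in C57, 47.2 in 4B(+/+), 67.5 in 4B(-/-), 71.6 in 4D(+/+) and 72.2 in 4D(-/-). On it the 2 PDE4D lines had a log2 difference of 0.01, and the low array was 4B(+/+), 1.63-fold under C57, a distance downward that 1.02% of all probe sets had in that comparison. All of these values are within 2-fold of the floor, and 3 of the 10 lie under it.

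Slc4a1, the chloride and bicarbonate exchanger of the red-cell membrane, stayed under the floor, yet 2 of its 3 probe sets set 4D(-/-) apart. The first read 21.1 in C57, 17.3 in 4B(+/+), 21.1 in 4B(-/-), 19.7 in 4D(+/+) and 48.5 in 4D(-/-). The x_at probe set read 15.5, 16.1, 15.6 and 12.9 in those 4 arrays and 47.2 in 4D(-/-). On both, the other 4 arrays lay close together and 4D(-/-) stood above each of them, by at least 2.30-fold and 2.93-fold. In contrast to Alas2, this did not rest on a low 4D(+/+) value, since against the mean log2 of C57 and 4B(+/+) the folds were 2.54 and 2.99. The last Slc4a1 probe set read 12.0, 12.6, 13.5, 9.04 and 11.0 in the same order of arrays, so it did not show the difference.

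Of all 34958 single-symbol probe sets, 8 (0.0229%) were at least 2-fold above every other array in 4D(-/-), and 2 of these 8 were the Slc4a1 probe sets. This criterion was chosen after the values were seen. The other 6 were single probe sets of Cyp1a1, Mtrex, Chil4, Adamts9, Nnt and Pde4d. Among single-symbol probe sets that stayed under the floor in all arrays, 0.0368% (6 of 16310) were at least 2-fold higher in 4D(-/-) than in 4D(+/+). All Slc4a1 values lie under the floor, so the size of the fold is poorly determined.

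Epb42, which binds the cytoplasmic part of Slc4a1, showed neither pattern. One probe set read 21.6 in C57, 4B(+/+), 4B(-/-) and 4D(-/-) and 23.9 in 4D(+/+), and the other read between 4.58 and 5.46 in the 5 arrays. Identical values in several arrays are frequent in this table, and 59.7% of all probe sets hold one. The Epb42 values lie at a level where a change of the transcript may not be detectable.

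Adult globin genes are reported mainly by 4 probe sets that the annotation gives to several symbols, which were outside the choice of members. One is shared by 4 adult beta-globin symbols, Hbb-b2 among them, and 3 are shared by the 2 adult alpha-globin symbols, so none can be given to 1 gene. The beta-globin probe set read 12551 in C57, 15134 in 4B(+/+), 13806 in 4B(-/-), 10426 in 4D(+/+) and 14153 in 4D(-/-). The alpha-globin probe set with the widest range read 2478, 2899, 2623, 1282 and 3041 in the same order of arrays. All 4 were lowest in 4D(+/+), and 3 were highest in 4D(-/-), while the beta-globin probe set was highest in 4B(+/+).

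The folds of 4D(-/-) over 4D(+/+) on the shared probe sets were 1.36 for beta globin and 2.37, 1.48 and 1.53 for alpha globin. Against the mean log2 of C57 and 4B(+/+) they were only 1.03, 1.13, 1.10 and 1.08. The probe set with the fold of 2.37 was the dimmest, reading at most 3041, and the others read 10426 or more. Whether folds are understated at such high intensities was not tested. The 3 alpha-globin probe sets ranked the 5 arrays in exactly the order of Alas2, from 4D(+/+) through C57, 4B(-/-) and 4B(+/+) to 4D(-/-). These 3 report the same genes, so they are not separate matches. The share of all probe sets with this exact order was not computed. The pattern of 4D(+/+) lowest and 4D(-/-) highest was also shown by 3 of the 8 member probe sets, and by 4.83% of all single-symbol probe sets. The plot of centred profiles shows the members beside the shared globins.

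**Figure D2:**
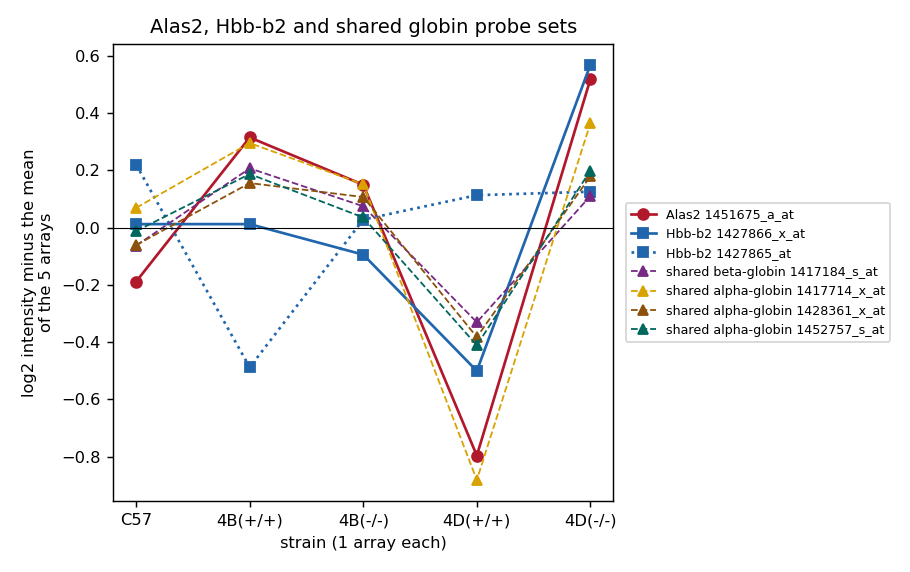
Log2 intensity minus the probe set's own mean over the 5 arrays for Alas2, both Hbb-b2 probe sets and the 4 globin probe sets shared by several genes, by strain, 1 array each. All but one Hbb-b2 probe set dip in 4D(+/+), and Alas2 and the x_at probe set of Hbb-b2 stand farthest up in 4D(-/-).

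The likeness of profiles was measured as the root mean square difference of log2 values centred on their own mean over the 5 arrays, among the 11500 genes over the floor. For Alas2 the closest genes were Fam107a (0.16), Bcar3 (0.20), Jade2 (0.20), Hecw2 (0.23) and Igkv9-120 (0.23), against a median of 0.47 and a highest value of 2.28 over all genes. The shared alpha-globin probe set of widest range was closer to Alas2 than any of these, at 0.14. The other 3 shared globin probe sets lay at 0.25, 0.26 and 0.29, with 10, 15 and 30 genes closer. For the x_at probe set of Hbb-b2 the closest were Bcar3 (0.073), Hecw2 (0.082), Ces1g (0.087), Csf2rb2 (0.090) and Hif3a (0.099). For the other Hbb-b2 probe set they were Ptar1 (0.098), Tmem94 (0.098), Nav1 (0.11), 6330407A03Rik (0.11) and Dnajc17 (0.11), and the 2 Hbb-b2 probe sets shared 0 of their 5 closest genes. From 85 to 552 genes were closer to the x_at probe set than the shared globins were, and from 10615 to 11283 to the other.

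A wider list of 94 red-cell symbols, of which 77 were measured and 52 over the floor, was set beside the members. In 4D(-/-) against 4D(+/+), 3 of the 52 genes were at least 1.5-fold higher and 1 lower, where 1.1% and 4.53% of all 11500 genes were, and the median log2 difference was 0.00 in the list and over all genes. Hbb-b2 stands in this list by its x_at probe set, which had the higher mean only through its 4D(-/-) value. Its other probe set had a log2 difference of 0.01 between the PDE4D lines. Without the members, 1 of 50 was higher, the transcription factor Foxo3, and 1 lower, the haem enzyme Uros. In 4B(-/-) against 4B(+/+), 0 of 52 passed 1.5-fold, where 0.383% of all genes were higher and 0.93% lower, and the medians were 0.01 and 0.01. Apart from Alas2 and Hbb-b2 the list thus stayed near the background. With C57 and 4B(+/+) as the reference for 4D(-/-), 0 of 52 passed 1.5-fold, where 0.6% of all genes did so upward and 0.583% downward.

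**Figure D3:**
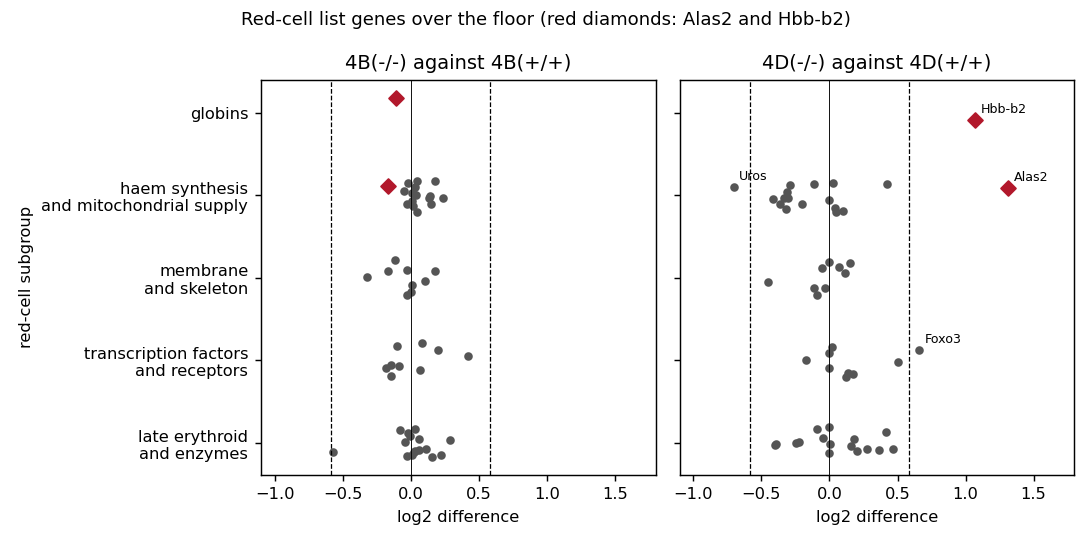
Log2 difference of each red-cell list gene over the floor (points) by subgroup in the 2 knockout comparisons, 1 array a strain, with dashed lines at 1.5-fold. Members are red diamonds. Alas2 and Hbb-b2, the latter drawn by its x_at probe set only, lie farthest to the right in 4D(-/-). In 4B(-/-) every point lies within 1.5-fold.

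In the haem synthesis and mitochondrial supply group, Alas2 was the 1 of 17 genes over the floor at least 1.5-fold higher in 4D(-/-) and Uros, uroporphyrinogen III synthase, the 1 lower. Uros read 182 in C57, 264 in 4B(+/+), 311 in 4B(-/-), 324 in 4D(+/+) and 199 in 4D(-/-), a 1.63-fold difference between the PDE4D lines. Its other probe set stayed between 22.1 and 24.5. The 6 measured enzymes that follow Alas2 in the pathway, Alad, Uros, Urod, Cpox, Ppox and Fech, all lay below 4D(+/+) in 4D(-/-), by log2 differences from -0.70 to -0.11 around a median of -0.32, while 47.2% of all genes lay below. These 6 were singled out after their values were seen, and 5 of them were within 1.5-fold. Against C57, 4 of the 6 were below and 2 above, around a median of -0.11, where 56.4% of all genes were below. Against the mean log2 of C57 and 4B(+/+), 6 of 6 were below around a median of -0.16, where 57.1% of all genes were.

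Ppox read 173 in 4D(+/+) and 130 in 4D(-/-), and the mitochondrial carrier Slc25a38, which supplies glycine for haem synthesis, had 199 in 4D(-/-), 187 in C57 and a log2 difference of -0.36 between the PDE4D lines. Slc25a37, mitoferrin 1, which brings iron into mitochondria, went the other way, at 166 and 222, 1.34-fold higher in 4D(-/-). Among the other 4 arrays Slc25a37 lay between 160 and 181, so 4D(-/-) was its highest array, as for Alas2.

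Among membrane and skeleton genes, 0 of 9 over the floor passed 1.5-fold in either knockout comparison. Ank1, the ankyrin that binds Slc4a1, read 194 in 4D(+/+), 142 in 4D(-/-) and between 132 and 146 elsewhere. Its second probe set read 68.7 and 36.1 in the PDE4D lines, and its remaining 2, under the floor, did not repeat this. The water channel Aqp1, which lung endothelium also makes, stayed between 3728 and 4565. Tspan33 was lowest in 4B(-/-), at 55.4 against 68.6 to 71.9, but its other probe set over the floor was lowest in C57, at 46.1, and read 55.8 in 4B(-/-), so the probe sets disagree.

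Of 9 transcription factors and receptors over the floor, Foxo3 was the 1 higher in 4D(-/-), at 1643 against 1040 in 4D(+/+), with 1220 to 1492 in the other arrays. A second Foxo3 probe set read 666 in 4D(-/-) and 454 in 4D(+/+), and 677 in 4B(-/-). Ikzf1, a factor of lymphoid and erythroid cells, read 242 and 171 in the PDE4D lines and 258 in C57. Myb, a factor of immature blood cells, read 457 in 4B(-/-) and 341 in 4B(+/+), a log2 difference of 0.42, and its other probe sets over the floor gave 0.59 and 0.08. Bcl11a, a repressor of embryonic globins, read 61.1 in 4B(-/-) and 69.2 in each other array on its representative probe set, but another probe set read 104 in C57, 57.4 in 4B(+/+), 33.7 in 4B(-/-), 66.9 in 4D(+/+) and 96.0 in 4D(-/-), so its probe sets disagree. The erythroid master regulators Gata1 and Klf1 stayed under the floor, Gata1 between 24.8 and 26.5 and Klf1 between 27.8 and 36.2.

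Of 16 late erythroid and enzyme genes, 0 passed 1.5-fold in either knockout comparison. Catalase (Cat), which breaks down hydrogen peroxide, read 4475 in C57, 2782 in 4B(+/+), 1874 in 4B(-/-), 2821 in 4D(+/+) and 3757 in 4D(-/-), so its value lay above its wild type in 4D(-/-) and under it in 4B(-/-), both within 1.5-fold. The peroxiredoxin Prdx2 went the opposite ways, at 1658, 1913, 2337, 2256 and 1714. Both enzymes are made by many lung cells. Ube2o, a ubiquitin ligase of reticulocyte maturation, read 116 in 4D(-/-) and 84.0 in 4D(+/+).

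The wild-type lines were also set against C57. In 4B(+/+), 1 of 8 member probe sets was at least 1.5-fold lower, the Hbb-b2 probe set above, and 0 higher, where 1.02% and 1.5% of all probe sets were. In 4D(+/+), 1 of 8 was lower, Alas2, and 0 higher, where 0.993% and 2.63% of all were. Of the 52 list genes, 0 were higher and 1 lower in 4B(+/+), where 2.23% and 1.33% of genes over the floor were, and 1 was higher and 3 lower in 4D(+/+), where 4.25% and 1.24% were. Against C57 the list gave 1 higher and 1 lower in 4B(-/-), where 2.53% and 3.57% of genes were, and 1 higher and 0 lower in 4D(-/-), where 1.37% and 0.791% were. The direct comparison of the knockouts gave 3 of 8 member probe sets at least 1.5-fold higher in 4D(-/-) than in 4B(-/-), the x_at probe set of Hbb-b2 and 2 of Slc4a1, where 2.21% of all were. Against C57, 3 of 8 were higher in 4D(-/-), where 0.861% of all were, and 0 lower, where 0.535% were. In 4B(-/-) against C57, 0 of 8 passed 1.5-fold, where 1.69% of all were higher and 2.64% lower.

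Markers of other cells also differed between these arrays. The shared globin probe sets, with values from 1282 to 22481, were outside the erythroid marker list. Erythroid markers of a single symbol were mostly dim. Of the 8 measured, 6 stayed under the floor, Slc4a1, Epb42, Hbb-bh1, Klf1, Rhag and Hemgn. The 8 summed to 240 in 4D(+/+), 468 in 4D(-/-) and between 310 and 375 elsewhere. This sum restates the members, which are 4 of the 8 and carry most of it, with Hbb-b2 taken by its x_at probe set. The 4 erythroid markers that are no members, all under the floor, summed to 52.1 in 4D(+/+), 56.8 in 4D(-/-) and 52.1 to 61.1 in the rest, so they did not repeat the difference. Skeletal muscle markers summed to 27322 in 4D(+/+), the array where the globins were lowest, to 5993 in 4D(-/-) and to 2761 to 6149 in the others, and 6 of 6 were lower in 4D(-/-) than in 4D(+/+), as they were in 4B(-/-) than in 4B(+/+). Neutrophil markers summed to 11149 in 4D(+/+) and 5421 in 4D(-/-), most of it Ltf (7272 and 3471). Of those over the floor 3 of 3 were lower, and Camp, Ngp, Mpo, Elane and Cxcr2 were under it in every array. Between the PDE4B lines Ltf read 7136 in 4B(+/+) and 3598 in 4B(-/-), while S100a8 read 2022 and 2161 and S100a9 970 and 1050. Alveolar macrophage markers summed to 7111 and 10302, most of it Chil3 (5291 and 8183), and 3 of 6 were higher in 4D(-/-), Chil3, Marco and Fabp1. Of the others, Siglecf had a log2 difference of 0.41, Car4 of -0.05 and Pparg of -0.46, all within 1.5-fold.

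Platelet markers, from the other cells of blood without a nucleus, did not go with them. They summed to 1377 in 4D(+/+) and 1086 in 4D(-/-), and 0 of 6 passed 1.5-fold. Markers of iron-recycling macrophages summed to 1353 and 1687, most of it Vcam1 (793 and 1108), with Spic and Hpx under the floor. Of the others 0 of 4 passed 1.5-fold, and Cd163 read 159 and 168, Slc40a1 220 and 214, and Hmox1 137 and 152. B-cell markers summed to 846 and 1100 in the PDE4D lines and to 1296 in C57, and T-cell markers to 578 and 594, with 962 in 4B(-/-). The part of these cells and tissues in the red-cell values was not tested.

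**Figure D4:**
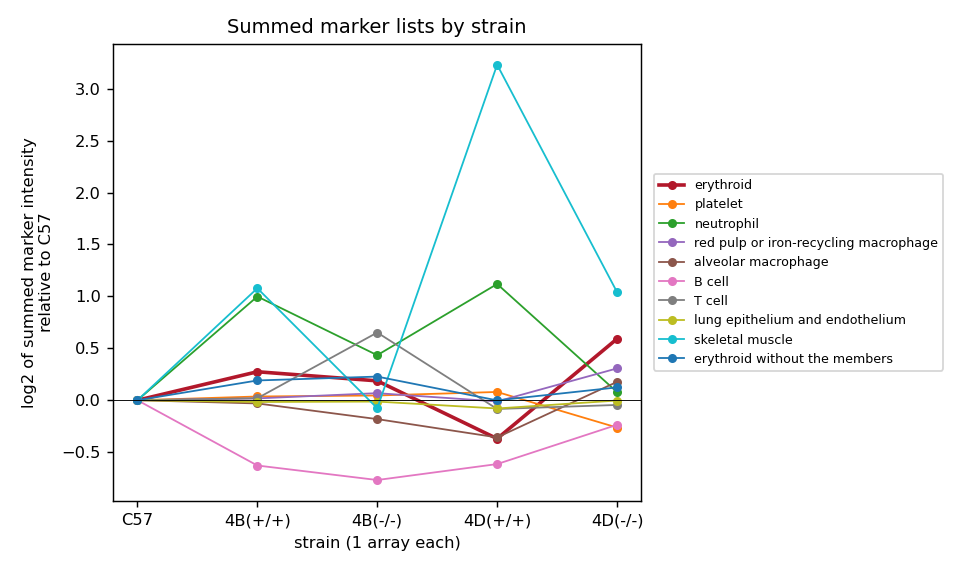
Log2 of the summed intensity of each marker list relative to C57, by strain, 1 array each; lines join the values of a list. Skeletal muscle and neutrophil markers peak in 4D(+/+), the neutrophil sum being mostly Ltf. The erythroid sum, carried mostly by the members, runs from 240 in 4D(+/+) to 468 in 4D(-/-). Without the members the erythroid sum is 52.1 and 56.8 in these arrays.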

How the data were processed

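Whole-lung RNA of 5 mouse strains was hybridised to 1 array each from 0.3 µg of total RNA. The authors deposited intensity values on a linear scale, summarised with RMA per the submitters' processing notes. The sources used here do not give its version or settings. RMA makes the arrays' distributions equal and can pull dim values together, so folds of dim probe sets may be understated, which was not tested. Intensities were converted to log2. The annotation gave 1 symbol for 34958 of 45101 probe sets, several for 932 and none for 9211. Genes (18194, of which 11500 reached 64) were represented by their probe set with the highest mean log2 value. The number of arrays limits the precision.

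No test was run, because each strain has 1 array. A difference counted from 1.5-fold. Named were all member probe sets, list genes past 1.5-fold in a knockout comparison, otherwise the 3 largest differences per subgroup; markers and Gata1, Klf1 and the haem enzymes were named outside this rule. The members and lists were chosen with earlier results of these data known. Alternatives were scaling (median centring; cyclic loess, limma 3.58.1), floors of 32, 128 or none, the median of probe sets, an offset of 32, folds of 1.3 and 2, and other references. Promoter words were counted in the RefSeq table for GRCm38.p6, whose build need not be that of the arrays. The counting code was checked on simulated arrays with 2-fold changes planted in genes well over the floor. This checks the code only and not the reliability of any difference. Python 3.11.15, numpy 2.4.6 and pandas 2.3.3 were used.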

Additional observations from a re-analysis of the deposited data

Results flagged for a closer look

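The 4 globin probe sets that the annotation gives to several genes lay outside the choice of members and were higher in 4D(-/-) than in the wild-type array 4D(+/+). The log2 difference was 0.44 on the beta-globin probe set and 1.25, 0.56 and 0.61 on the 3 alpha-globin probe sets. Cat and Prdx2 differed between the knockouts in direction, each by at least 1.2-fold against its own wild type. The log2 difference of 4D(-/-) minus that of 4B(-/-) was 0.98 for Cat and -0.69 for Prdx2, and this was not tested, since each group has 1 array. A second Cat probe set had log2 differences of 0.00 in 4D(-/-) and -0.19 in 4B(-/-), and a second Prdx2 probe set -0.29 and 0.26.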

How the results depend on the processing

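No paired analysis was possible because each group holds 1 array, and for the same reason no replicate could be left out. Counts are of red-cell list genes, given as higher and lower. Reported were 0 and 0 in 4B(-/-) against 4B(+/+), 3 and 1 in 4D(-/-) against 4D(+/+), and, against C57, 0 and 1 in 4B(+/+), 1 and 3 in 4D(+/+), 1 and 1 in 4B(-/-) and 1 and 0 in 4D(-/-). At 1.3-fold they became, in that order, 1 and 1, 7 and 5, 2 and 4, 7 and 6, 4 and 3, and 4 and 2. The share of all genes past 1.3-fold was not computed, so these counts have no background to be read against. At 2-fold the counts of 1 became 0, except the 1 lower in 4B(-/-) against C57 (Cat), which stayed 1. The 3 higher in 4D(-/-) against its wild type became 2, and the 3 lower in 4D(+/+) against C57 became 0. With every probe set counted, 4B(-/-) against its wild type gave 1 and 1, 4D(-/-) gave 2 lower, and against C57 4B(+/+) gave 1 and 4, 4D(+/+) 4 and 5, 4B(-/-) 2 and 3, and 4D(-/-) 1 lower. With each gene taken as the median over its probe sets, 4D(-/-) against its wild type gave 1 and 0, and against C57 4B(+/+) gave 0 lower, 4D(+/+) 0 and 1, and 4B(-/-) 0 and 2. With 32 added before log2, against C57 there were 2 lower in 4B(+/+), 1 in 4D(+/+) and 2 in 4B(-/-). A floor of 32 or none gave 2 lower in 4D(-/-) against its wild type and 2 and 1 against C57. Cyclic loess gave 1 lower in 4B(-/-) against its wild type and 2 lower in 4D(+/+) against C57. Against a mean over all 3 wild types there was 1 lower in 4B(-/-), and 2 higher and 0 lower in 4D(-/-). Against C57 averaged with 4B(+/+) there were 0 and 0 in 4D(-/-). Counting every probe set and changing the reference were chosen after seeing the data. A changed threshold, floor or reference alters the counts by construction, and otherwise the cause was not tested.

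Of the members, Alas2 and the x_at probe set of Hbb-b2 came under 1.5-fold in 4D(-/-) without the 4D(+/+) array, at log2 differences of 0.46 and 0.56. With 32 added, Alas2 in 4D(+/+) against C57 came to -0.48, and the other Hbb-b2 probe set in 4B(+/+) against C57 to -0.46. Under median centring and cyclic loess, 96 of 96 member values stayed on their side of 1.5-fold, moving by at most 0.047. RMA had already made the arrays' distributions equal, so such scaling could move the values only a little. All Slc4a1 and Epb42 values lie under the floor, and pooled RNA on 1 array a strain gives no spread between mice.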
